A study of Mus musculus with 768 samples.

Results

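The 8 genes studied here, by which endothelial cells take part in blood clotting and in its dissolution, are Vwf, F8, Thbd, Procr, F3, Tfpi, Plat and Plaur. They were followed through 3 sorted populations of mouse endothelium. The genes were chosen by symbol, and all 8 were among the 51734 gene rows of the count files. The tissue was PyMT tumour, a mouse tumour driven by the middle T antigen of polyoma virus, and lymph node. CD45-negative, CD31-positive cells that bound the antibody MECA-79 were sorted from tumours (TU_HEV, plates pool3 and pool4) and from lymph node (LN_HEV, pool1 and pool2). CD45-negative, CD31-positive cells of the tumours that did not bind it formed the third group (TU_EC, poolA to poolD). MECA-79 recognises sulfated sugars on high endothelial venules (HEVs), the vessels through which lymphocytes leave the blood. The labels give no genotype, age, treatment or animal, and they do not say whether the tumours arose in transgenic mice or from implanted cells. Each group was therefore 1 sample, and no difference between groups could be tested against the spread between animals.

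Endothelium keeps blood fluid and seals a wound with the same small set of proteins. Von Willebrand factor, stored in the Weibel-Palade bodies of endothelial cells, ties platelets to exposed matrix and carries factor VIII in plasma. Tissue factor, encoded by F3, starts coagulation and is normally held outside the vessel lining, while Tfpi encodes the inhibitor that shuts off this start. Thrombomodulin (Thbd) and the endothelial protein C receptor (Procr) turn thrombin into an activator of the anticoagulant protein C. Tissue plasminogen activator (Plat) makes the clot-dissolving plasmin, and Plaur encodes the receptor for the related activator urokinase.

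Single cells had been lysed in 8 plates of 96 wells, and 50 and 48 cells of the TU_HEV plates, 62 and 79 of the LN_HEV plates and 68, 81, 82 and 72 of the TU_EC plates were kept. The counts of TU_HEV, LN_HEV and TU_EC summed to 146215450, 142357765 and 221773977, with a median per cell of 1431389, 1056419 and 625611. Levels are given as CPM, the counts of a gene summed over the cells of a group or plate per 1000000 counts of all genes in them. Intervals are exact 95% intervals for counting error, and since reads copied by PCR without molecular tags are not independent molecules, they are too narrow. The 11 pool1 libraries named in the selection were left out because 16 TU_HEV libraries recur in them. For each of these 16, a left-out library held at least 90% of the counts at 98.9% or more of the features with 10 or more counts, and outside the left-out libraries the highest such share was 80.7%. All 5 pan-endothelial markers (Pecam1, Cdh5, Tie1, Egfl7 and Eng) were above 10 CPM in every group, with sums of 6765, 5380 and 5804 CPM. The 6 leukocyte markers summed to 3.36, 8.30 and 3.52 CPM in TU_HEV, LN_HEV and TU_EC, and the epithelial and the mural lists to at most 1.402 CPM. The kept cells had been chosen by these same marker lists, so the sums are no separate check of purity. The 6 platelet and megakaryocyte markers summed to 17.1, 431 and 3.49 CPM in TU_HEV, LN_HEV and TU_EC. In LN_HEV, 3 of the 6 had counts: Pf4 at 427 CPM in 84.4% of cells, Itga2b at 3.57 CPM in 11 cells and Gp1ba at 0.85 CPM in 1 cell, while Ppbp, Gp9 and Gp1bb had none. Without the cells with 2 or more of these markers at 10 CPM, the same members were called in every comparison. The 6 HEV markers summed to 753, 89381 and 1153 CPM, and without Ccl21a, which had 1126 CPM in 14 TU_EC cells, to 752, 70552 and 27.0 CPM, and the HEV genes Chst4 and Fut7 had no count in TU_EC. TU_EC libraries form a file and number series of their own, so the MECA-79 gate and the library set cannot be told apart where TU_EC is compared.

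In tumour HEV cells, Vwf, Thbd, Plat and Plaur were higher than in lymph node HEV cells, and F8 and Tfpi were lower. These 4 members of the 7 with at least 1 CPM in a group were at least 2-fold higher in TU_HEV, as were 27.2% of the 14122 features at that level, and the 2 others were at least 2-fold lower, against 15.1% of the features. The plates of the 2 groups did not overlap for 7 of the 7 members, and for 48.3% of the features. TU_HEV against TU_EC showed less: Vwf and F8 were at least 2-fold higher, 2 of 7 members against 25.7% of 13979 features, and Plat was at least 2-fold lower, 1 of 7 against 13.1%. The plates did not overlap for Vwf, F8, Tfpi and Plat, 4 of 7 members, and for 37.1% of the features. In LN_HEV against TU_EC, F8 and Tfpi were at least 2-fold higher, 2 of 7 members against 21.8% of 13974 features. Vwf, Thbd, Plat and Plaur were at least 2-fold lower, 4 of 7 against 20.7%, and 6 of 7 members had plates that did not overlap, against 38.8%. The 3 comparisons share groups, so their counts do not stand apart from each other.

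The median log2 ratio of the 7 members was 1.41 in TU_HEV against LN_HEV, 0.09 in TU_HEV against TU_EC and -1.65 in LN_HEV against TU_EC, where all features tested had medians of 0.30, 0.40 and 0.12. Another scaling moved the balance of the background. Of the features called at 2-fold, 64.4% were higher in TU_HEV than in LN_HEV with total counts, and 51.7% with median-of-ratios size factors. In TU_HEV against TU_EC the shares were 66.3% and 45.3%. The 15 members' ratios called at 2-fold kept their direction and their 2-fold size under median-of-ratios scaling and with totals that left out the 20 highest features. The log2 ratios of Procr and Plaur in TU_HEV against TU_EC, 0.09 and 0.03, became -0.34 and -0.41 with median-of-ratios factors, so no direction is given for them.

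**Figure D1:**
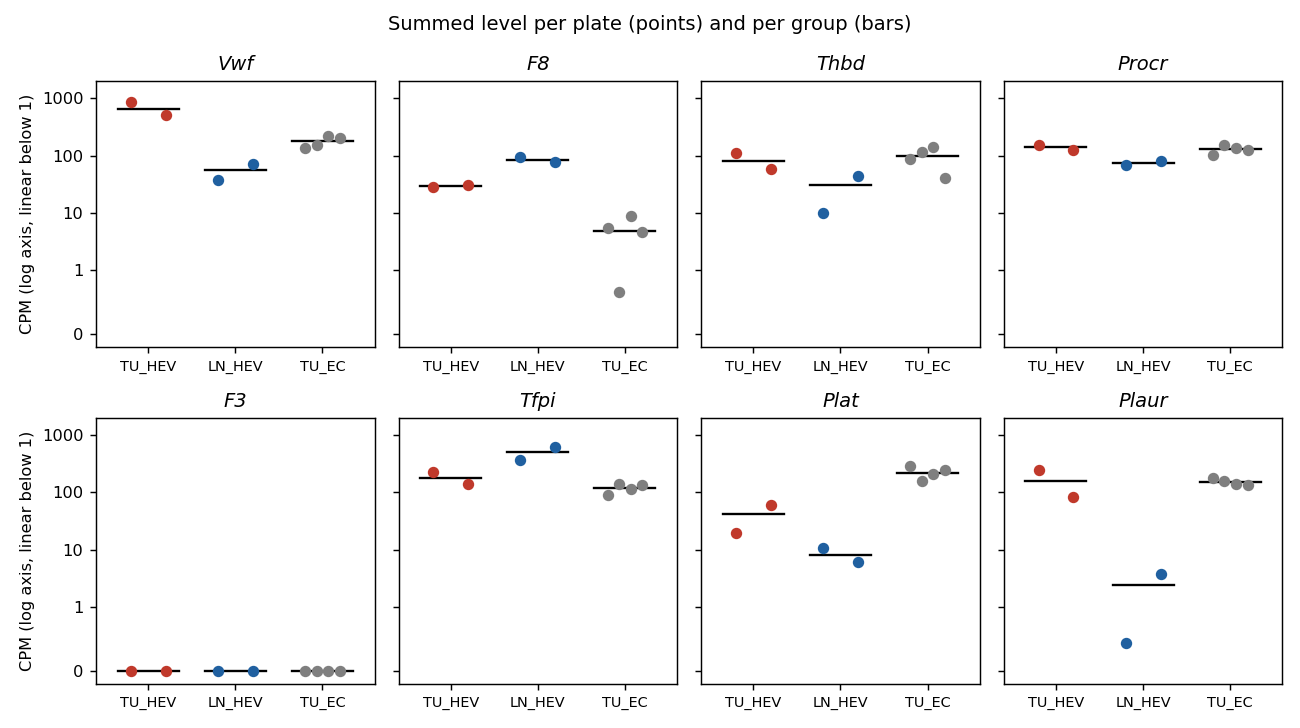
CPM of each gene, on a log axis that is linear below 1, in the groups TU_HEV, LN_HEV and TU_EC. Points are plates and bars the summed level of the group. Vwf of the TU_HEV plates (511 and 853 CPM) lies above all other plates, F8 and Tfpi are highest in the LN_HEV plates, and F3 is at 0 in all 8 plates.

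**Figure D2:**
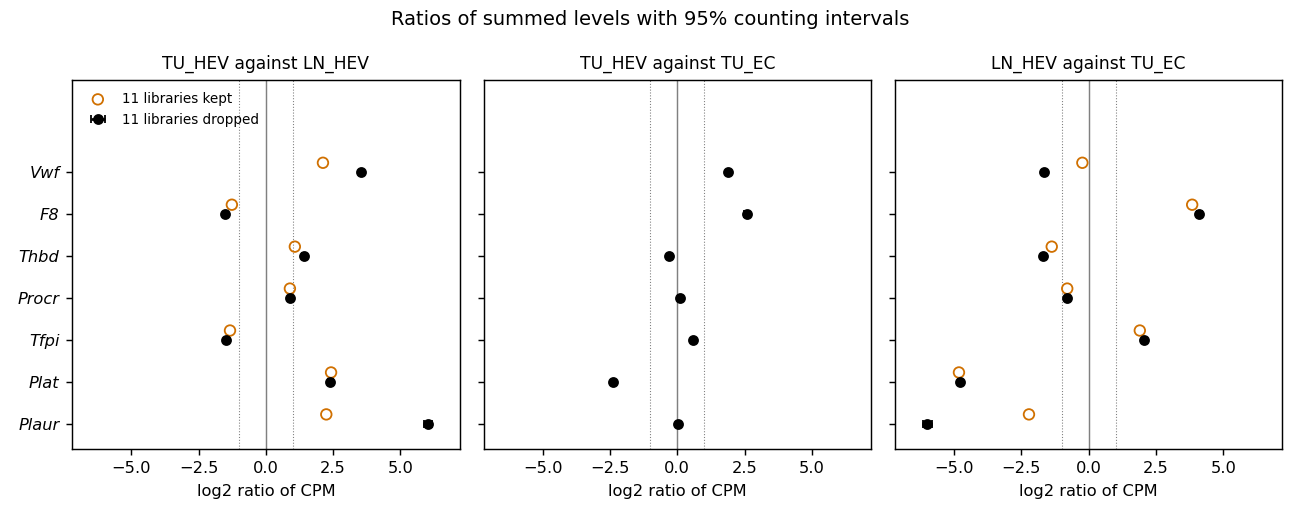
Log2 ratio of summed CPM for the 7 genes with counts, in the comparisons TU_HEV against LN_HEV, TU_HEV against TU_EC and LN_HEV against TU_EC. Filled points leave out the 11 pool1 libraries and carry 95% counting intervals, mostly narrower than the point, open points keep these libraries, and dotted lines mark 2-fold. Plaur in TU_HEV against LN_HEV lies at 6.02 without and 2.24 with the 11 libraries, and F8 and Tfpi are left of 0 either way.

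Vwf, the gene of von Willebrand factor, was highest in tumour HEV cells. Its gene lies on chromosome 6 (GRCm38, 125546774 to 125686679, plus strand). It measured 853 and 511 CPM in the TU_HEV plates pool3 and pool4, 37.6 and 70.3 CPM in the LN_HEV plates pool1 and pool2, and 134.7, 153.2, 221.1 and 205.2 CPM in the TU_EC plates poolA to poolD. Every TU_HEV plate was above every TU_EC plate, and every TU_EC plate above both LN_HEV plates. The summed level was 662 CPM in TU_HEV, 11.6-fold (11.4 to 11.9) that of LN_HEV at 56.9 CPM and 3.69-fold (3.65 to 3.74) that of TU_EC at 179.1 CPM, and LN_HEV was 3.15-fold (3.07 to 3.22) below TU_EC. Without pool2, TU_HEV was 17.6-fold above LN_HEV, and LN_HEV 4.77-fold below TU_EC. With the 11 libraries kept, LN_HEV stood at 152.2 CPM, TU_HEV was 4.35-fold higher, and LN_HEV against TU_EC was no longer 2-fold apart at a ratio of 0.85.

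Vwf was found in a larger share of tumour HEV cells, and its median level in the cells with a count was higher there. After each cell was thinned to 100000 counts, 77.6% of 98 TU_HEV cells (exact binomial interval 68.0 to 85.4), 30.0% of 140 LN_HEV cells (22.6 to 38.3) and 37.7% of 300 TU_EC cells (32.2 to 43.4) had a count. Among cells with a count, the median level was 668 CPM in TU_HEV, 110.2 CPM in LN_HEV and 276.2 CPM in TU_EC. The highest single cell held 5.17% of the counts in TU_HEV, so no single cell carried the level.

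F8, which encodes coagulation factor VIII, the cofactor that speeds factor X activation, had the opposite order between the HEV groups. It lies on the minus strand of chromosome X (75172715 to 75382615). Its plates measured 27.9 and 30.5 CPM in TU_HEV, 93.0 and 78.3 CPM in LN_HEV, and 5.597, 0.66, 8.80 and 4.77 CPM in TU_EC. The plates of the 3 groups did not overlap. TU_HEV at 29.4 CPM was 2.87-fold (2.77 to 2.97) below LN_HEV at 84.3 CPM and 5.98-fold (5.598 to 6.402) above TU_EC at 4.91 CPM. LN_HEV was 17.2-fold (16.1 to 18.3) above TU_EC. Counts were found in 11.2% of thinned TU_HEV cells (5.74 to 19.2), 37.9% of LN_HEV cells (29.8 to 46.4) and 2.33% of TU_EC cells (0.94 to 4.75). In TU_EC this was 7 cells after thinning and 8 before, and 1 of them held 24.9% of the counts. Fundc2 runs on the opposite strand within the span of F8 and had 79.4, 94.0 and 32.0 CPM in TU_HEV, LN_HEV and TU_EC, but the exons of both genes share 0 bases in GENCODE release 21.

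The cells that held F8 were not simply those that held Vwf. In LN_HEV, 53 thinned cells had F8 and 42 had Vwf, and 19 had both. In TU_HEV, 9 of the 11 cells with F8 also had Vwf, which 76 of 98 cells had. In TU_EC, 4 of 7 cells with F8 had Vwf.

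**Figure D3:**
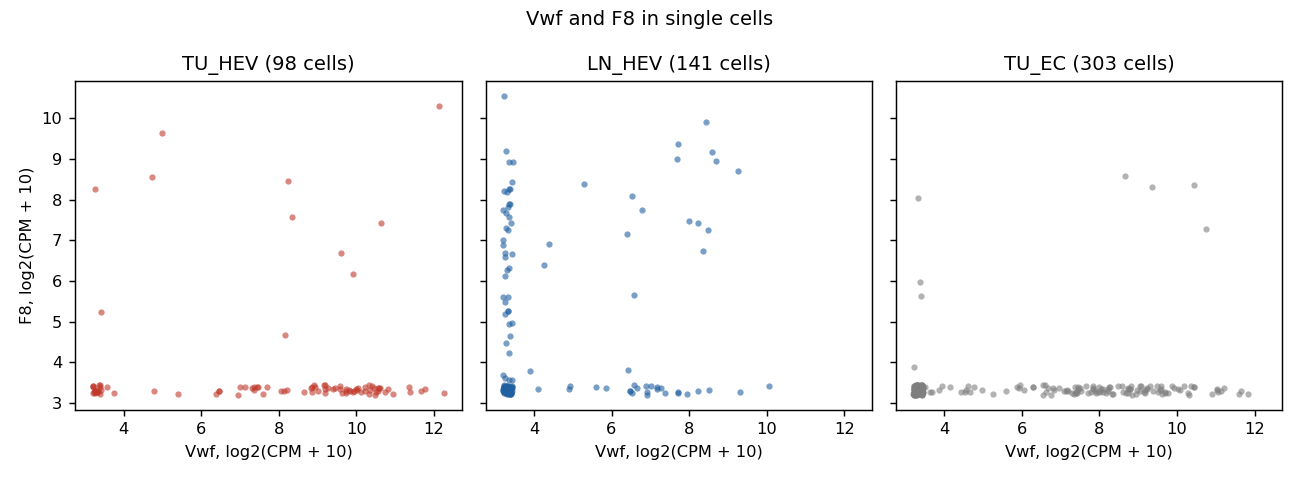
Level of F8 against that of Vwf in single cells, both as log2(CPM + 10), with a small random shift so that cells at 0 can be seen. Each point is a kept cell of TU_HEV, LN_HEV or TU_EC. In LN_HEV many cells with F8 line up at 0 for Vwf, and in TU_HEV most cells spread along the Vwf axis at 0 for F8.

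Promoter windows from the RefSeq tables (GRCm38.p6, 250 bases before to 50 after a start) were found for 5 of the 8 members: F8, Procr, F3, Tfpi and Plaur. They are shown for the members with the clearest pattern across groups and for the one at 0. Altogether 6 short motifs were searched on both strands and are in capitals where found. They were TATAAA for the TATA box, GGGCGG for SP1, CACCC for Krüppel-like factors, AGATAA for GATA factors, AGGAAG for ETS factors and TGAGTCA for AP-1. Among all 32851 windows, 13.6%, 35.7%, 57.5%, 11.2%, 35.4% and 5.20% held them. The F8 window (chrX:75379992-75380291, minus strand), whose start lies inside the gene as GENCODE draws it, held none of these letters. Its GC content of 42.3% was below the median of 52.7% over all windows, and it had 2 CpG pairs against a median of 7.
F8 promoter: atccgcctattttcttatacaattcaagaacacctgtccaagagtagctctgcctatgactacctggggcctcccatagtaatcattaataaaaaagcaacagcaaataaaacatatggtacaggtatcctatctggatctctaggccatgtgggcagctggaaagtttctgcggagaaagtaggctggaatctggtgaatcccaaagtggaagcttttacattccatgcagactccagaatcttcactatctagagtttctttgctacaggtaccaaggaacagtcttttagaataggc
The first Tfpi window (chr2:84476710-84477009, minus strand) had 1 match each for the TATA box, SP1, Krüppel-like and ETS letters. It comes from 1 of the 2 starts listed for Tfpi, which shares with F8 the higher level in LN_HEV.
Tfpi promoter: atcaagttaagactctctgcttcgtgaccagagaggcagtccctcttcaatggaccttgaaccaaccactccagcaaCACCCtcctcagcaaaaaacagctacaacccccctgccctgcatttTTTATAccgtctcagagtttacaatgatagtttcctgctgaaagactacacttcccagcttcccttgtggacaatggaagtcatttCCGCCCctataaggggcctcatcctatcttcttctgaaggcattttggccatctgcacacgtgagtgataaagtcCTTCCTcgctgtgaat
The Plaur window (chr7:24462233-24462532, plus strand) held 3 SP1 matches next to each other, the last 2 of which share 1 base, 2 ETS matches and 1 AP-1 match.
Plaur promoter: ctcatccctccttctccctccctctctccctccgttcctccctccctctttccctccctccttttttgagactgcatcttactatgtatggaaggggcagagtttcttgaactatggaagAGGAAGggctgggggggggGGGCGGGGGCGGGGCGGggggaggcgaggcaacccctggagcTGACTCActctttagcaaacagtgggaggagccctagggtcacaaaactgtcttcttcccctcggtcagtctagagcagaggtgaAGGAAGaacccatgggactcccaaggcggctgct
The F3 window (chr3:121723287-121723586, plus strand) was the richest in CpG, with 32 pairs and 70.3% GC. It held 3 SP1, 4 Krüppel-like, 1 TATA and 1 AP-1 match, where the AP-1 letters overlap a Krüppel-like match.
F3 promoter: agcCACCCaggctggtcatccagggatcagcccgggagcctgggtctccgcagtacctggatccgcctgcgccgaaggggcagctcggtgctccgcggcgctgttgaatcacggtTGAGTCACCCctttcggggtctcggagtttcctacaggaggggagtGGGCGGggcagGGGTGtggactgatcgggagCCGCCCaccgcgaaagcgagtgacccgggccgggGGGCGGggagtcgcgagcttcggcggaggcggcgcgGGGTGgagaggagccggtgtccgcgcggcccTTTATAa

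Thbd, the thrombin-binding receptor, was lower in lymph node HEV cells than in tumour HEV cells, and variable between plates. The gene lies on chromosome 2 (148404466 to 148408188, minus strand). Its plates measured 109.5 and 57.8 CPM in TU_HEV, 10.1 and 44.4 CPM in LN_HEV, and 87.5, 115.5, 141.2 and 41.2 CPM in TU_EC. The TU_HEV plates were above the LN_HEV plates, while the TU_EC plates overlapped both. The summed level in TU_HEV, 80.6 CPM, was 2.65-fold (2.56 to 2.75) that of LN_HEV at 30.4 CPM and 0.81 of that of TU_EC at 99.04 CPM. Without pool3 or without pool1 the ratio of TU_HEV to LN_HEV was 1.90 or 1.82, below 2-fold, and without pool2 it was 7.98. LN_HEV was 3.26-fold (3.16 to 3.37) below TU_EC, and 9.80-fold below without pool2. A count was present in 28.6% of thinned TU_HEV cells, 16.4% of LN_HEV cells and 34.7% of TU_EC cells.

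Procr, the receptor that presents protein C to the thrombin and thrombomodulin pair, was the member whose summed level was within 2-fold in all 3 comparisons. It lies on chromosome 2 (155751117 to 155755471, plus strand). Its plates measured 156.1 and 126.7 CPM in TU_HEV, 68.8 and 79.7 CPM in LN_HEV, and 101.9, 152.2, 138.2 and 124.9 CPM in TU_EC. TU_HEV and TU_EC overlapped, and both LN_HEV plates were below them. At 139.7 CPM, TU_HEV was 1.86-fold (1.81 to 1.90) above LN_HEV at 75.3 CPM and had a ratio of 1.07 (1.05 to 1.09) to TU_EC at 130.8 CPM. LN_HEV was 1.74-fold (1.70 to 1.78) below TU_EC. Without pool4 or without pool2, TU_HEV was 2.07-fold or 2.03-fold above LN_HEV. The share of thinned cells with a count did not follow the level: it was 45.9% in TU_HEV (35.8 to 56.3), 59.3% in LN_HEV (50.7 to 67.5) and 57.7% in TU_EC (51.9 to 63.3). Positive cells had a median of 191.1 CPM in TU_HEV and 96.1 CPM in LN_HEV. One TU_HEV cell held 14.1% of the counts, and the rest of that group stood at 121.4 CPM. Of the TU_HEV cells with Thbd, 16 of 28 also had Procr, as had 13 of 23 in LN_HEV, and in TU_EC 66 cells had both and 38 had Thbd alone.

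F3 had no count in any cell kept. A count of 0 allows up to 3.06% of TU_HEV cells, 2.13% of LN_HEV cells and 0.990% of TU_EC cells with a count, by 3 cells as the floor. The exact binomial limits over thinned cells were 3.69%, 2.6005% and 1.22%. Both limit cells with a count and cover counting error, and say nothing of cells that express the gene below detection. A total of 3 counts over a group would be 0.0205, 0.0211 and 0.0135 CPM. The gene lies on chromosome 3 (121723537 to 121735048, plus strand).

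Tfpi, the inhibitor of the tissue factor and factor VIIa complex, was found in nearly all lymph node HEV cells. It lies on chromosome 2 (84432855 to 84476775, minus strand). Its plates measured 227.4 and 141.6 CPM in TU_HEV, 360.6 and 605.7 CPM in LN_HEV, and 90.9, 140.5, 116.1 and 134.01 CPM in TU_EC. The LN_HEV plates were above all others, and the lowest TU_HEV plate was barely above the highest TU_EC plate. TU_HEV at 179.5 CPM was 2.82-fold (2.78 to 2.86) below LN_HEV at 506 CPM and 1.48-fold (1.46 to 1.51) above TU_EC at 121.2 CPM, and LN_HEV was 4.17-fold (4.11 to 4.23) above TU_EC. The log2 ratio of Tfpi in TU_HEV against TU_EC, 0.57 with total counts, was 0.13 with median-of-ratios factors. Its size thus depended on the scaling, and overlap of plates was examined with total counts only. A count was seen in 59.2% of thinned TU_HEV cells (48.8 to 69.0), 92.9% of LN_HEV cells (87.3 to 96.5) and 50.3% of TU_EC cells (44.5 to 56.1). The median over all cells was 52.7 CPM in TU_HEV, 420 CPM in LN_HEV and 7.03 CPM in TU_EC. The highest LN_HEV cell held 3.24% of the counts of its group.

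Plat was highest in the MECA-79-negative tumour cells. It lies on chromosome 8 (22757727 to 22782844, plus strand). Its plates measured 19.4 and 59.4 CPM in TU_HEV, 10.8 and 6.02 CPM in LN_HEV, and 288.5, 156.3, 206.02 and 245.2 CPM in TU_EC, and no plates overlapped between groups. TU_HEV at 41.7 CPM was 5.24-fold (4.91 to 5.58) above LN_HEV at 7.97 CPM and 5.27-fold (5.13 to 5.41) below TU_EC at 220.03 CPM, while LN_HEV was 27.6-fold (26.0 to 29.3) below TU_EC. One TU_HEV cell of pool4 held 44.1% of that group's counts. Without the highest cell of each group TU_HEV was 8.92-fold below TU_EC, and without pool4 it was 2.44-fold above LN_HEV and 11.3-fold below TU_EC. With the wells left out by the cell type rule added back, TU_HEV was 10.0-fold above LN_HEV and 3.04-fold below TU_EC. A count was present in 13.3% of thinned TU_HEV cells (7.26 to 21.6), 5.71% of LN_HEV cells (2.50 to 10.9) and 53.0% of TU_EC cells (47.2 to 58.8).

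Plaur was present in both tumour groups and close to absent from lymph node HEV cells. It lies on chromosome 7 (24462484 to 24475968, plus strand). Its plates measured 247.999 and 84.7 CPM in TU_HEV, 0.43 and 3.80 CPM in LN_HEV, and 180.6, 159.3, 141.8 and 135.6 CPM in TU_EC. Both LN_HEV plates were far below the 6 tumour plates, and the tumour groups overlapped. TU_HEV at 156.8 CPM was 64.7-fold (58.2 to 72.2) above LN_HEV at 2.42 CPM and had a ratio of 1.02 (1.00 to 1.04) to TU_EC at 154.01 CPM, while LN_HEV was 63.5-fold (57.2 to 70.9) below TU_EC. One LN_HEV cell held 85.8% of the counts of its group, and without the highest cell of each group TU_HEV was 391-fold above LN_HEV and LN_HEV 432-fold below TU_EC. Leaving out pool3, pool4, pool1 or pool2 gave TU_HEV over LN_HEV ratios of 34.97, 102.3, 41.3 and 364.5, and LN_HEV was 40.5-fold below TU_EC without pool1 and 357.98-fold without pool2. The ratio of TU_HEV to LN_HEV was 38.4 over thinned cells, and LN_HEV was then 36.3-fold below TU_EC, and 40.1-fold with equal weight per cell. With the 11 libraries kept, LN_HEV had 33.1 CPM and TU_HEV was 4.74-fold above it. A count was present in 48.0% of thinned TU_HEV cells (37.8 to 58.3), 2.86% of LN_HEV cells (0.78 to 7.15) and 55.3% of TU_EC cells (49.5 to 61.0). Plat and Plaur were both found in 7 of 98 TU_HEV cells and 0 of 140 LN_HEV cells. In TU_EC they were found together in 35.0% of 300 thinned cells.

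**Figure D4:**
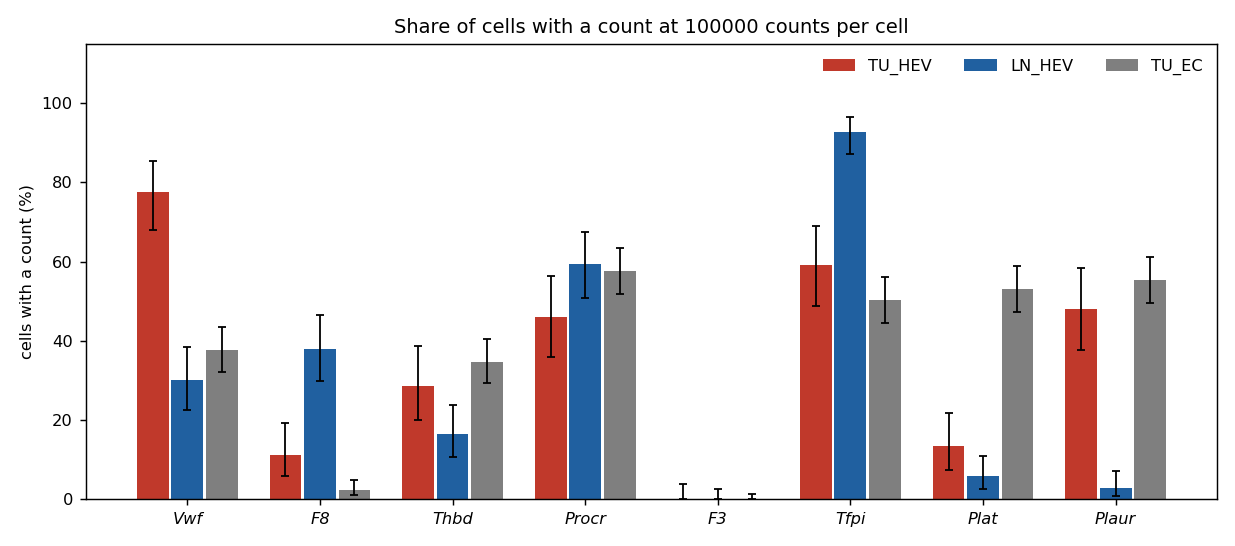
Percent of cells with a count of each gene after each cell was thinned to 100000 counts, with exact 95% binomial intervals as error bars. Bars run TU_HEV, LN_HEV, TU_EC for each gene. Vwf has its highest share in TU_HEV (77.6%), Tfpi in LN_HEV (92.9%) and Plat in TU_EC (53.0%).

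Per length, so that genes can be compared, the order of the members differed by group. In TU_HEV the highest levels were those of Procr at 68.8, Plaur at 59.9 and Vwf at 41.2 CPM per kb of exon. The order of the first 2 differed by plate, with Plaur at 94.8 and Procr at 76.9 CPM per kb in pool3, and Plaur at 32.4 and Procr at 62.4 CPM per kb in pool4. In LN_HEV, Tfpi led with 92.6 CPM per kb, ahead of Procr at 37.1, and Plaur had 0.93. In TU_EC, Procr had 64.4, Plaur 58.8 and Plat 35.3 CPM per kb, and F8 was lowest of the 7 at 0.50. The median thinned cell had a count of 3 members in TU_HEV, 2 in LN_HEV and 3 in TU_EC, and at most 6, 5 and 6 of the 8 were found in 1 cell.

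The gates differed in the classes of endothelium they held, and several members followed the class. Cells were put in the class with the most markers at 10 CPM or more, out of 6 for each of venous, arterial, capillary, tip and lymphatic cells, with at least 3 needed. No member was among the markers. Venous-like cells made up 70.4% of TU_HEV, 92.2% of LN_HEV and 10.9% of TU_EC, in which 48.8% were tip-like. These classes are ranges of a score and not types: 2 of 69, 33 of 130 and 3 of 33 venous-like cells had just 3 markers. The median sum of the capillary markers in venous-like cells was 3538 CPM in TU_HEV, 0 CPM in LN_HEV and 1418 CPM in TU_EC, and that of the lymphatic markers, which include Ccl21a, was 0, 15300 and 0 CPM.

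Among venous-like cells, Vwf in the tumour was nearly level inside and outside the MECA-79 gate. It had 844 CPM in the 69 TU_HEV cells, 56.9 CPM in the 130 LN_HEV cells and 754 CPM in the 33 TU_EC cells, with a count in 95.7%, 32.3% and 84.8% of them. The ratio of TU_HEV to TU_EC was 1.12 (1.10 to 1.14), and the plates, 650 to 1064 CPM in TU_HEV and 332.03 to 989.8 CPM in TU_EC, overlapped. LN_HEV remained 13.3-fold (12.9 to 13.6) below TU_EC. The 33 venous-like cells held 53.2% of all Vwf counts of TU_EC. Outside that class Vwf had 99.7 CPM in tip-like and 38.6 CPM in arterial-like TU_EC cells.

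By summed level, Thbd and Procr were highest in different TU_EC classes, but plates of several classes overlapped. Thbd was lower in tip-like cells, at 51.3 CPM, and in venous-like cells, at 94.9 CPM, than in arterial-like cells, at 225.2 CPM, capillary-like cells, at 257.5 CPM, and the 9 lymphatic-like cells, at 531 CPM. The plates of arterial-like (72.1 to 392.2 CPM) and capillary-like cells (93.6 to 373.8 CPM) overlapped those of venous-like cells (45.8 to 151.6 CPM), and 4 of the 9 lymphatic-like cells had a count, with plates from 0 to 585 CPM. With markers counted at 50 CPM the capillary-like level was 167.4 CPM. In TU_HEV as well, Thbd had 173.2 CPM in the 17 capillary-like and 64.1 CPM in the venous-like cells. Procr, in contrast, had 298.7 CPM in venous-like TU_EC cells, with plates from 215.2 to 360.6 CPM, and 98.1 CPM in tip-like cells, with plates from 73.5 to 123.9 CPM. Lymphatic-like TU_EC cells had 218.7 CPM of Procr, with plates from 0 to 363.1 CPM that overlapped those of venous-like cells. Capillary-like cells had 136.8 CPM and arterial-like cells 93.5 CPM. In TU_HEV Procr had 164.4 CPM in venous-like and 57.0 CPM in capillary-like cells. Among venous-like cells, Procr of LN_HEV, at 75.5 CPM, was 3.95-fold (3.84 to 4.07) below TU_EC.

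The remaining members were also compared among venous-like cells. Tfpi had 192.1 CPM in TU_HEV, 511 CPM in LN_HEV and 134.1 CPM in TU_EC, and Plaur had 188.1, 2.48 and 90.2 CPM. For Plaur the ratio of TU_HEV to TU_EC was 2.09 (2.00 to 2.17) within the class, where that over all cells was 1.02. The TU_EC level of Plaur came from 11 of 33 cells, and 1 cell held 43.2% of the counts. Its plates, 95.9 to 292.7 CPM in TU_HEV and 0.16 to 256.4 CPM in TU_EC, overlapped, so no direction is given. Plat had 22.9 CPM in TU_HEV, 5.72 CPM in LN_HEV and 99.03 CPM in TU_EC, and F8 had 33.2, 87.6 and 12.4 CPM, the last from 2 cells. Within TU_EC, Plat was higher in tip-like cells at 263.4 CPM and arterial-like cells at 277.3 CPM than in venous-like cells, and the plates of tip-like cells (156.2 to 353.8 CPM) were above those of venous-like cells (54.5 to 124.5 CPM). Plaur ranged from 90.2 CPM in venous-like to 209.1 CPM in capillary-like TU_EC cells, where 1 of 16 cells held 51.2% of the counts.

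**Figure D5:**
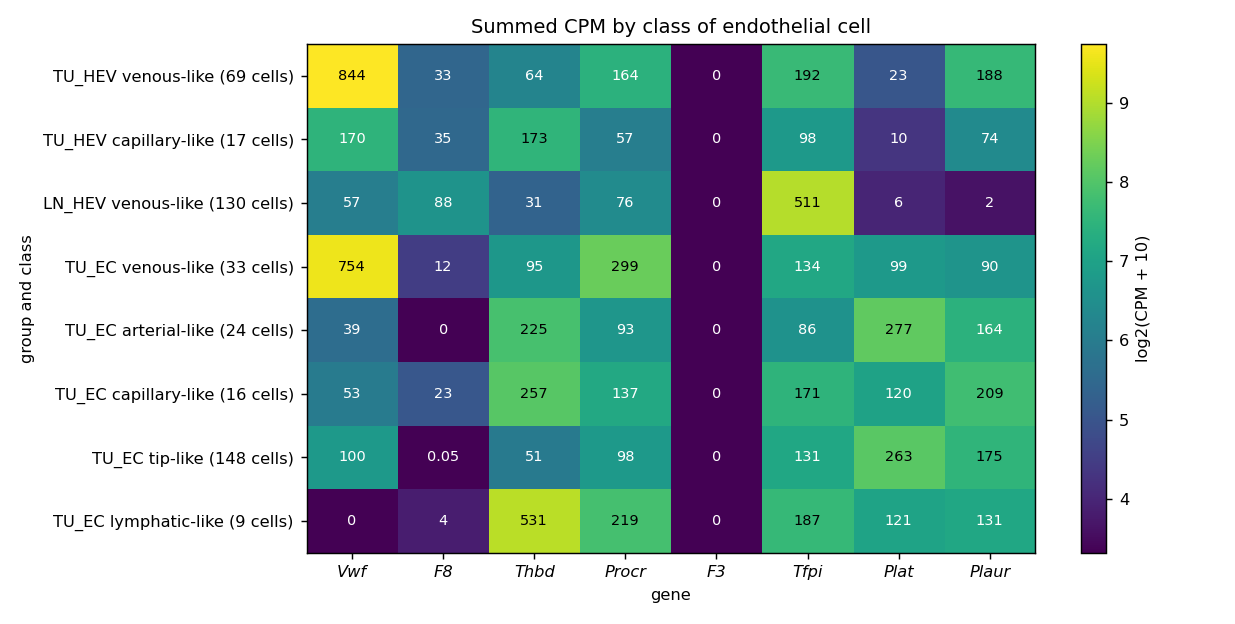
Summed CPM of each gene (columns, number in each cell of the grid) by group and class of endothelial cell (rows), coloured by log2(CPM + 10). Rows run from TU_HEV through LN_HEV to TU_EC. Vwf is brightest in venous-like tumour cells of both gates (844 and 754 CPM), Tfpi in LN_HEV and Thbd in lymphatic-like TU_EC cells.

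Over the 300 thinned TU_EC cells, the genes whose levels went most closely with each member were listed among 4747 genes, by Pearson's r of log2(CPM + 10) with r above 0 in all 4 plates. For Vwf they were Jam2, Il6st and Aqp1, with r of 0.41, 0.40 and 0.36. Over TU_HEV cells, Jam2, Il6st and Aqp1 had r of 0.16, 0.52 and 0.38 with Vwf, and over LN_HEV cells 0.19, 0.18 and 0.02. For Thbd they were Tek, Jun and Adgrg1 (0.36 each), for Procr Tmed10, Cd9 and Eef1b2 (0.34 to 0.35), and for Tfpi Rhoa, Tmed2 and Atp5b (0.46 to 0.48). For Plat they were Msn, Tuba1a and Rhoc (0.45 each), and for Plaur Rpn2, Sod1 and Ddost (0.44 to 0.47). Over TU_HEV and LN_HEV cells, Msn, Tuba1a and Rhoc had r between -0.14 and 0.10 with Plat. The genes listed for Thbd, Procr, Tfpi and Plaur had r between -0.02 and 0.38 with these members in the same 2 groups. Cells of 1 plate share their library preparation. Between members, r was computed for Vwf with F8, Thbd with Procr, Plat with Plaur and Vwf with Procr. It was 0.22 for Plat with Plaur in TU_EC (0.13 to 0.35 in its plates) and 0.23 for Vwf with Procr in TU_HEV (0.18 to 0.30). The other values in the 3 groups lay between -0.03 and 0.16.

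The other genes of the pathway were counted by lists. Of 13 genes of platelet adhesion and Weibel-Palade bodies, 12 were at 1 CPM or more in TU_HEV or LN_HEV, and 4 of these were at least 2-fold higher and 4 lower in TU_HEV, with a median log2 ratio of 0.56. Over all features tested in that comparison 27.2% were higher and 15.1% lower, at a median of 0.30, and these shares are the background of the lists that follow. Selp encodes P-selectin, which is stored with von Willebrand factor. It had 3025 and 2594 CPM in the TU_HEV plates, 20.8 and 35.4 CPM in the LN_HEV plates, and 225.9, 190.02, 466.5 and 200.7 CPM in the TU_EC plates. Its order over the groups was that of Vwf, with TU_HEV 94.7-fold above LN_HEV and 10.1-fold above TU_EC. With the 11 libraries kept, LN_HEV had 476 CPM. Cd63, a membrane protein of the same granules, was instead 2.32-fold lower in TU_HEV (232.01 CPM) than in LN_HEV (538 CPM) and 2.38-fold above TU_EC (97.4 CPM). Mmrn1, which encodes multimerin 1 and is also one of the lymphatic markers, had no count in TU_HEV, 4.47 CPM in LN_HEV and 97.3 CPM in TU_EC. These levels came from 3 LN_HEV cells and from 11 TU_EC cells, 3.63% of that group. In TU_EC 1 cell held 38.9% of the counts, and the plates ran from 15.3 to 179.7 CPM.

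Clotting factors themselves were nearly missing. Of 12 genes for factors and fibrinogen, 2 reached 1 CPM in TU_HEV or LN_HEV. F2, which encodes prothrombin, had no count in TU_HEV and 20.0 CPM in LN_HEV, in 17 cells. Set to the floor of 3 counts, TU_HEV was 974-fold lower, while the exact counting limit was at least 791-fold. F5 had 1.69 CPM in TU_HEV, none in LN_HEV and 1.01 CPM in TU_EC. None of the 5 genes for the vitamin K cycle and for factor transport out of the endoplasmic reticulum was 2-fold apart in any comparison.

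Of 10 genes on the list of anticoagulants and thrombin inhibitors, 7 were at 1 CPM in TU_HEV or LN_HEV. Of these, 3 (Pros1, Gas6 and Hs3st1) were at least 2-fold higher in TU_HEV than in LN_HEV and 0 lower, with a median log2 ratio of 0.55, against 27.2% and 15.1% of all features. Gas6 is a ligand of the TAM receptors related to protein S, and its place on the list does not make it an anticoagulant. It had 48.8 CPM in TU_HEV and 0.19 CPM in LN_HEV. Pros1, which encodes protein S, the cofactor of activated protein C, had 266.2 CPM in TU_HEV, 70.3 CPM in LN_HEV and 144.7 CPM in TU_EC. Against TU_EC, 0 of 8 were higher and 3 lower in TU_HEV, where 25.7% and 13.1% of all features were, and 0 were higher and 6 lower in LN_HEV, where 21.8% and 20.7% were. The thrombin receptor gene F2r was within 2-fold in all comparisons, at 309.5, 247.3 and 288.5 CPM. F2rl3, the gene of protease-activated receptor 4, had 17.0 CPM in TU_HEV, from 3 cells, 0 in LN_HEV and 40.6 CPM in TU_EC.

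Of 12 genes of fibrinolysis, 6 were at 1 CPM in TU_HEV or LN_HEV, and 5 of these were at least 2-fold higher in TU_HEV with none lower, at a median log2 ratio of 2.99, against 27.2% higher and 15.1% lower of all features. In LN_HEV against TU_EC, 7 of 8 were lower and 1 higher, at a median of -3.77, against 20.7% lower and 21.8% higher of all features. Anxa2 and S100a10 encode the parts of a surface receptor that binds plasminogen and tissue plasminogen activator. Anxa2 had 1227 CPM in TU_HEV, 120.98 CPM in LN_HEV and 1489 CPM in TU_EC, and S100a10 had 286.1, 51.9 and 279.3 CPM. Plau, which encodes urokinase, had 4.46 CPM in TU_HEV and 27.2 CPM in TU_EC, and a single count in LN_HEV, for a ratio of TU_HEV to LN_HEV of 635 (113.5 to 25111). Its TU_HEV plates had 0.17 and 7.85 CPM, with 40.5% of the counts in 1 cell, so without pool4 it was below 1 CPM in both HEV groups and outside the count. Thbs1, which encodes thrombospondin 1, had 487 CPM in TU_HEV, 13.6 CPM in LN_HEV and 205.9 CPM in TU_EC. Plgrkt, a plasminogen receptor gene, went the other way in LN_HEV, at 60.4 CPM there against 14.9 CPM in TU_EC.

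With total counts, all 5 genes by which endothelium inhibits platelets were at least 2-fold higher in TU_HEV than in LN_HEV. Their median log2 ratio was 3.05, and 27.2% of all features were at least 2-fold higher. Of the 5, 1 was at least 2-fold higher than in TU_EC, where 25.7% of features were. Entpd1, the ADP-degrading enzyme CD39, had 1376 CPM in TU_HEV, 240.7 CPM in LN_HEV and 787 CPM in TU_EC. Nos3, endothelial nitric oxide synthase, had 148.3, 17.9 and 197.2 CPM, and 1 LN_HEV cell held 58.4% of its counts. Ptgis, the fifth of the list with Nt5e and Ptgs1, had 3.98 CPM in TU_HEV, with 99.8% of the counts in 1 cell and 0 CPM in pool4. Ptgs1, at 146.5 CPM in TU_HEV against 71.4 CPM in LN_HEV, was barely 2-fold higher. The lists were not recomputed under other scalings. Median-of-ratios factors lowered the log2 ratios of this comparison, that of Vwf from 3.54 to 3.25. Of 9 transcription factors known to act on members, Hif1a was the one at least 2-fold higher in TU_HEV than in LN_HEV, at 665.2 against 188.4 CPM. The factors Klf2 and Klf4, which in cultured endothelium drive Thbd, were within 2-fold in all comparisons of summed levels, at 78.3, 133.99 and 82.0 CPM and at 46.5, 43.8 and 35.9 CPM in TU_HEV, LN_HEV and TU_EC. The LN_HEV plates of Klf2 had 44.9 and 195.4 CPM, so without pool1 LN_HEV was more than 2-fold above both tumour groups.

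Within tumour HEV cells, the 42 thinned cells with a count of Chst4, a sulfotransferase that helps to build the MECA-79 epitope, had 787 CPM of Vwf and 231.3 CPM of Tfpi, and the 56 without had 542.6 and 129.97 CPM. Vwf was present in 93.1% of the 58 cells with Sele, the gene of E-selectin, and in 55.0% of the 40 without it. Plaur had 195.5 CPM in the cells with Sele and 84.3 CPM in those without, while Thbd had 69.9 CPM with and 100.7 CPM without. Cells of pool3 and pool4 were pooled in both splits. Chst4 itself had 290.6 CPM in pool3 and 140.9 CPM in pool4, and Vwf, Tfpi and Plaur were also higher in pool3. The splits were not made within each plate, so a difference by Chst4 or Sele was not separated here from one between plates.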

How the data were processed

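Smart-seq2 libraries of single sorted cells were used, with 23 PCR cycles and 75-base reads per the labels. The deposited files hold raw read counts per gene and cell. Per the submitters' processing notes, the tools were STAR 2.4.1b, FastQC 0.11.4 and Subread 1.4.6-p2, and the build mm10 (GRCm38). Which annotation was counted, and with which strand setting, is not given in the sources used here. Rows with the same symbol were summed, which left 51734 of 51826. Gene positions came from GENCODE mouse release 21 and promoters from RefSeq.

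Cells needed 50000 counts, 1000 genes, at most 30% mitochondrial counts and 2 of 5 pan-endothelial markers at 10 CPM, with fewer than 3 of 6 markers of each contaminant list. That kept 51.0%, 73.4% and 78.9% of the wells of TU_HEV, LN_HEV and TU_EC. No doublet caller was run, since cells were sorted singly into wells. Counts were summed per group and plate, scaled to CPM and compared as ratios, with exact conditional binomial intervals. With 1 sample in a group no test was made, and "called" means a ratio of at least 2 among features with 1 CPM or more in a group. Groups at 0 were set to 3 counts over the group. Cells were thinned to 100000 counts (seed 1) for shares and correlations, which left out 1 LN_HEV and 3 TU_EC cells. Genes other than the 8 members were named from lists of the pathway: those with the largest ratios, a set chosen by name, and those with the highest r. The members and lists were chosen with earlier results of these data known. The calling of features was run on simulated Poisson sums with planted changes larger than 2-fold. These sums had no spread between cells or plates, so the run says nothing of error from such spread. Python 3.11.15, numpy 2.4.6, pandas 2.3.3, scipy 1.17.1 and matplotlib 3.10.9 were used.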

Additional observations from a re-analysis of the deposited data

Results flagged for a closer look

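F3 counts were found in 3 wells outside the cells compared. These wells enter only the alternative that keeps all wells past the read filters. A TU_HEV well of pool4 had 218.6 CPM of F3. It had 389 CPM of Pdgfrb, a gene of mural cells, and no Pecam1 or Cdh5. A TU_EC well of poolA had 103.6 CPM, with 321.3 CPM of the epithelial gene Krt8 and with Pecam1 at 7.02 CPM. A TU_EC well of poolC had 179.5 CPM, with Pdgfrb at 672 CPM and Col1a1 at 378.75 CPM beside Pecam1 at 336.9 CPM. All 3 wells had been left out by the rule on cell type.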

How the results depend on the processing

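Ratios of the members were recomputed under 19 alternatives, 17 of them planned. The others were chosen after seeing the data: leaving out the 16 TU_HEV libraries that recur in pool1, and leaving out cells with 2 or more platelet markers at 10 CPM. All recomputed values of the 15 ratios called at 2-fold kept their direction, and all but 3 stayed at 2-fold. The 3 were Vwf in LN_HEV against TU_EC with the 11 libraries kept, and Thbd in TU_HEV against LN_HEV without pool3 or pool1. Procr passed 2-fold in TU_HEV against LN_HEV without pool4, without pool2 and without the 16 libraries (ratios of 2.07, 2.03 and 2.01), and in LN_HEV against TU_EC with totals that left out ribosomal RNA and mitochondrial genes (2.01-fold lower). The number of members at 2-fold stayed within 1.5 times under all of these, and with a minimum of 10 CPM or none. Ribosomal RNA features took 7.14%, 12.4% and 23.9% of counts in TU_HEV, LN_HEV and TU_EC, and the part of this in the ratios is covered by that last alternative alone. For classes, Plat in capillary-like TU_HEV cells was 9.72 CPM with markers at 10 CPM and 120 CPM at 50 CPM; the cause was not tested. No paired analysis was possible because the labels name no animal and no test was made. Few or no cells had counts of F3, F8 in TU_EC and Plaur in LN_HEV. At 250000 counts per cell in place of 100000, the shares were 0% for F3 in every group, 2.57% for F8 and 2.19% for Plaur.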
